A study of Arabidopsis thaliana with 6 samples.

Results

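TBL38 (AT1G29050), TBL19 (AT5G15900) and TBL39 (AT2G42570) are 3 genes of the TRICHOME BIREFRINGENCE-LIKE (TBL) family, out of 16550 genes named on the array. They were taken as the genes whose rows carry these names, and each has 1 row. They were chosen by their names and by the difference in log2 signal between induced and uninduced cells, which was known when they were picked, so their levels and differences are given here as a description, without a test. The cells were an Arabidopsis suspension culture, labelled Alex, grown in the dark. All 6 arrays came from cells that carry an estrogen-inducible fusion of ATHB8 with green fluorescent protein (GFP). The 3 induced arrays come from cells given 5 µM estrogen for 24 h. The 3 uninduced arrays come from the same transformed cells after 24 h without it. ATHB8 is a class III homeodomain leucine zipper transcription factor known from procambium, and the series sought genes downstream of it. Cells without the fusion, with or without estrogen, were not analysed here, so that the effects of estrogen and of ATHB8 cannot be told apart. ATHB8 has no row under its name, and its level could not be read.

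Many plant wall polysaccharides carry acetyl groups, which are added in the Golgi apparatus before the polymers reach the wall. Several TBL proteins transfer the acetyl group onto a particular polymer, such as xylan, mannan or xyloglucan. The activity of the TBL38, TBL19 and TBL39 proteins was not examined here. Xylan is the main hemicellulose of the thick secondary walls of xylem vessels and fibres, and plants that lack the xylan acetyltransferase TBL29 have collapsed vessels.

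The log2 signal of all rows had a median of 5.95 in both replicate 1 arrays and of 5.80 to 5.84 in the other 4 arrays. The replicate 1 arrays also differed in how their values are spread. In them 55.1% and 56.0% of the 38408 rows shared their exact value with another row of the same array, against 24.0% to 24.3% in the other 4. The 2 replicate 1 arrays held the same value in 12229 rows. None of the 3 genes had equal values in these 2 arrays, but some of their replicate 1 values are shared with other rows, as given with each gene. Of the markers chosen for photosynthetic leaf cells, tracheary elements and phloem, 0 have a row that names that gene alone. The labelled cell type was therefore not checked against markers. In a bulk culture, more cells that express a gene and more RNA per cell cannot be told apart.

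TBL38 had the largest difference of the TBL genes and stood at rank 10 of 16550 when all named genes were ordered from the largest rise down. Its log2 signal was 4.25, 4.76 and 4.39 in uninduced replicates 1, 2 and 3, and 6.59, 7.61 and 7.59 in induced replicates 1, 2 and 3. The groups did not overlap, and the lowest induced array stood 1.83 log2 units above the highest uninduced array. The means were 4.47 ± 0.27 without estrogen and 7.26 ± 0.58 with it (SD, n = 3 per group). The log2 difference was 2.80 ± 0.31 (SE of the limma fit), a 6.96-fold higher signal. Induced replicate 1 lay about 1 log2 unit below the other induced arrays, which nearly coincided. The value of uninduced replicate 1 was shared by 28 other rows of that array. In replicates 2 and 3 alone, a choice made after seeing the data, the log2 difference was 3.03 ± 0.16. The uninduced mean lay at percentile 34.5 of all rows, and no background level was analysed here, so the fold rests on an uninduced signal that was not shown to lie above background.

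TBL19 was higher in the induced cells by a smaller step. Its log2 signal was 4.35, 4.47 and 3.93 in uninduced replicates 1, 2 and 3. It was 5.00, 5.39 and 5.40 in induced replicates 1, 2 and 3. All induced arrays lay above all uninduced ones, with a gap of 0.53 log2 units, and the lowest of the 6 values was that of uninduced replicate 3. The means were 4.25 ± 0.28 and 5.26 ± 0.23 (SD, n = 3 per group), a log2 difference of 1.02 ± 0.19 (SE) or 2.02-fold. The replicate 1 values of TBL19 were shared by 112 other rows in the uninduced array and by 53 in the induced array. Replicates 2 and 3 alone gave a log2 difference of 1.196 ± 0.215. The uninduced mean lay at percentile 31.8 of all rows.

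TBL39 differed least of the 3 genes and had the tightest replicates. Its log2 signal was 10.05, 9.85 and 9.90 in uninduced replicates 1, 2 and 3. In induced replicates 1, 2 and 3 it was 10.35, 10.21 and 10.24. The groups did not overlap, though the gap between them was only 0.16 log2 units. The means were 9.93 ± 0.11 and 10.27 ± 0.08 (SD, n = 3 per group), a log2 difference of 0.34 ± 0.11 (SE) or 1.26-fold. Replicate 1 was the highest array of each group for TBL39, whereas induced replicate 1 was the lowest induced array for TBL38 and TBL19. The value of TBL39 in uninduced replicate 1 was shared by 3 other rows of that array, and that in induced replicate 2 by 2 other rows. The uninduced mean lay at percentile 90.7 of all rows, so TBL39 gave a high signal in uninduced cells too.

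**Figure D1:**
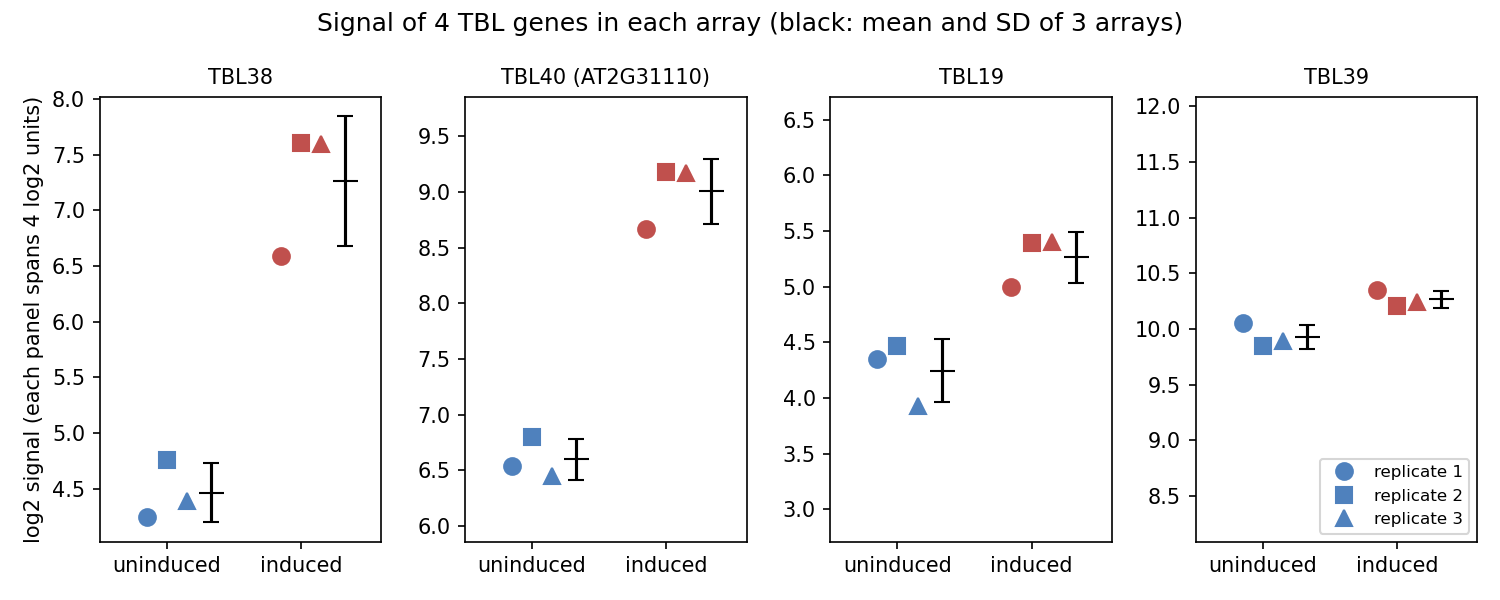
The log2 signal of TBL38, TBL40, TBL19 and TBL39 in each array, with uninduced arrays in blue, induced arrays in red, the marker shape giving the replicate number, and the mean and SD of 3 arrays in black. In all 4 panels, each spanning 4 log2 units, the induced arrays lie above the uninduced ones, by a gap of 1.83 for TBL38 and 0.16 for TBL39.

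The difference was also read within each same-numbered pair of arrays. TBL38 differed by 2.34, 2.84 and 3.21 log2 units in pairs 1, 2 and 3. TBL19 differed by 0.65, 0.92 and 1.47, and TBL39 by 0.30, 0.37 and 0.34. Every pair was positive for each gene, which follows from groups that do not overlap and adds nothing to that. Pair 1 gave the smallest difference in all 3 genes. The SD of the 3 pair differences was 0.43 for TBL38, 0.42 for TBL19 and 0.03 for TBL39. The spread of TBL19 between pairs was thus a larger share of its difference than that of the other 2 genes.

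**Figure D2:**
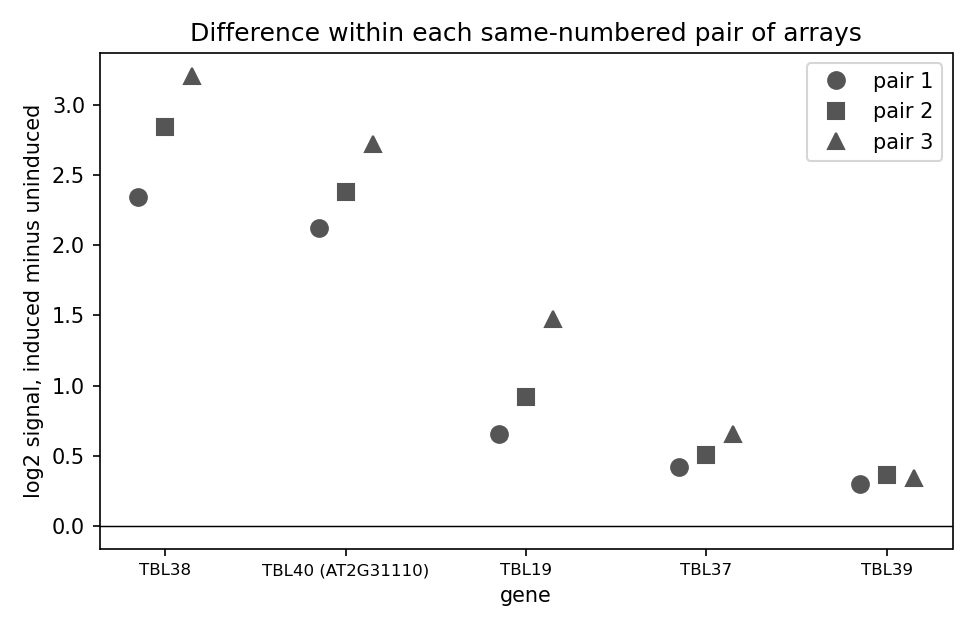
The log2 signal of the induced array minus that of the uninduced array with the same replicate number, for TBL38, TBL40, TBL19, TBL37 and TBL39, with the marker shape giving the pair. All 15 differences are above 0, as they must be in each gene but TBL37, since only the groups of TBL37 overlap. Pair 1 is the lowest point of each gene, at 2.34 for TBL38 and 0.30 for TBL39.

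The rest of the family was then examined, since its other genes were not used to pick these 3. RefSeq holds 45 TBL genes of the 47 names listed, and 24 of them have a row that names that gene alone. A further 2, TBL21 and TBL35, occur only in rows that name several genes and get no value, and 19 have no named row. Of the 21 genes other than TBL38, TBL19 and TBL39, 1 rose and 0 fell at an adjusted p under 0.05 in limma. Over all 38408 rows 0.633% rose and 0.328% fell by the same test, 0.961% in all. The median log2 difference of the 21 genes was 0.06, against -0.01 over all rows, and 12 lay higher and 9 lower.

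The gene that rose carries only its locus code on the array, AT2G31110, and RefSeq gives TBL40 as its synonym. TBL40 had a log2 signal of 6.54, 6.80 and 6.45 in uninduced replicates 1, 2 and 3. In induced replicates 1, 2 and 3 it had 8.67, 9.18 and 9.17. The groups did not overlap, with a gap of 1.87 log2 units, and induced replicate 1 was again the lowest induced array. The means were 6.60 ± 0.18 and 9.01 ± 0.29 (SD, n = 3 per group), a log2 difference of 2.41 ± 0.18 (SE) or 5.31-fold (limma adjusted p = 0.00645). The pairs gave 2.13, 2.38 and 2.72, and the value in uninduced replicate 1 was shared by 13 other rows of that array. The uninduced mean of TBL40 lay at percentile 58.4 of all rows. The call was lost without uninduced replicate 3 (adjusted p = 0.0562), where the log2 difference was 2.33 ± 0.21. In replicates 2 and 3 alone the log2 difference of TBL40 was 2.55 ± 0.16 (limma adjusted p = 0.0478). Probe sequences were not analysed here, so it was not tested whether the rows of TBL38 and TBL40 share probes that bind both transcripts.

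The other 20 TBL genes did not pass, with log2 differences from -0.34 to 0.53 and adjusted p of at least 0.61. TBL37 came next after TBL19 in size. Its log2 signal was 7.49, 8.20 and 8.08 in the uninduced replicates and 7.91, 8.71 and 8.74 in the induced ones. The groups overlapped because replicate 1 was low in both, while its pairs gave 0.42, 0.51 and 0.65, all positive. The log2 difference of TBL37 was 0.53 ± 0.29 (SE; limma adjusted p = 0.826). When a block term set both replicate 1 arrays apart, a choice made after seeing the data, TBL37 passed (adjusted p = 0.0462), and with the replicate number as a block it did not (0.104). TBL36 differed by 0.25 ± 0.11 (adjusted p = 0.61) and TBL31 by 0.31 ± 0.15 (0.721). The uninduced mean of TBL31 was 2.77, at percentile 10.5 of all rows, and the gap between its groups was 0.12 log2 units. Its value in induced replicate 1 was shared by 365 other rows of that array. Groups that did not overlap, with the induced arrays above, were seen in TBL40, TBL36 and TBL31, 3 of the 21 genes, against 5.82% of all rows. In none of the 21 did all induced arrays lie below all uninduced ones, which 6.43% of all rows did. In 11 of the 21 genes the value was identical in both replicate 1 arrays, against 31.8% of all rows. Pair 1 showed no difference there, and such groups must overlap. Only the remaining genes could have shown groups apart in either direction, so no conclusion is drawn from these counts.

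**Figure D3:**
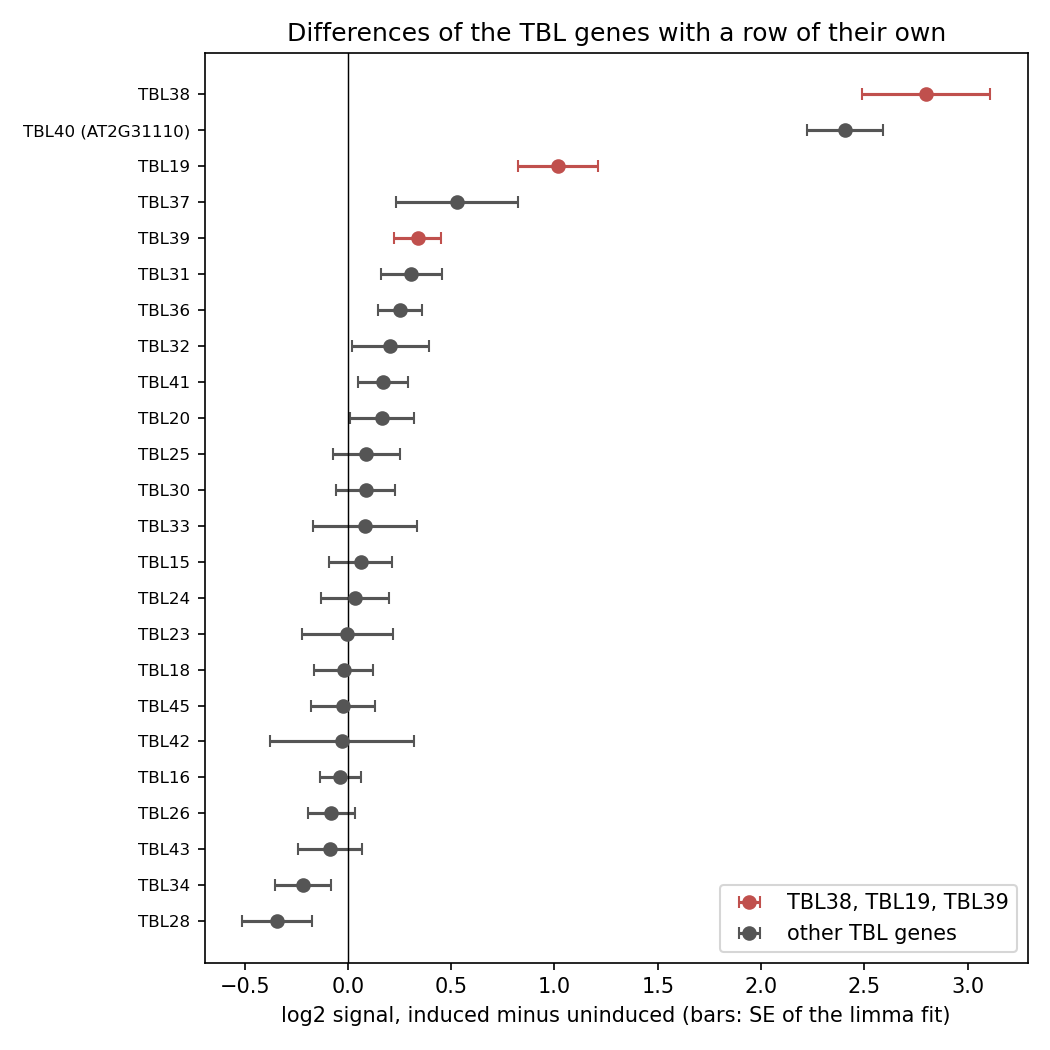
The log2 signal of induced minus uninduced arrays for the 24 TBL genes with a row of their own, ordered by size, with bars for the SE of the limma fit and TBL38, TBL19 and TBL39 in red. TBL38 (2.80) and TBL40 (2.41) stand apart at the top, TBL19 follows at 1.02, and the remaining genes lie between -0.34 and 0.53.

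Among the family members listed as xylan or mannan acetyltransferases none passed the test, which 0.961% of all rows did. Of the 9 xylan acetyltransferases on the list, 6 have a row, and 0 passed in limma, with 0 at an unadjusted p under 0.05 and a median log2 difference of 0.08. At that unadjusted threshold 4.17% of all rows lay higher and 4.31% lower. TBL28 differed by -0.34 ± 0.17 (limma adjusted p = 0.731), TBL34 by -0.22 ± 0.14 (0.894) and TBL32 by 0.21 ± 0.19 (1.0). TBL28 and TBL34 lay lower in each of the 3 pairs, but their groups overlapped. TBL31, also on this list, differed by 0.31 ± 0.15 (limma adjusted p = 0.721). It lay higher in each of the 3 pairs, and its groups did not overlap. Of the 6 genes 4 lay higher and 2 lower. All 4 mannan acetyltransferases, TBL23, TBL24, TBL25 and TBL26, have a row. Their log2 differences lay between -0.08 and 0.09, and 0 passed, also at an unadjusted p under 0.05. The xylan and mannan sets are too small for their counts to be told from the shares of all rows. No conclusion is drawn from these counts. The xyloglucan acetyltransferases TBL22 and TBL27, and TBL10 and TBL44, which are tied to pectin, have no row that names them alone.

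Genes for the polymers that TBL proteins act on were read in the same fit. Of 9 such genes with a row, 0 passed in limma, and 1, CSLC04, met the unadjusted threshold of 0.05. On the whole array 0.961% of rows passed, while 4.17% met the unadjusted threshold as higher and 4.31% as lower. A set of 9 genes is too small for its counts to be told from these shares, so no conclusion is drawn from them. In xylan synthesis the backbone enzymes GUT2 (IRX10) and GUT1 differed by -0.02 ± 0.11 and 0.05 ± 0.11 (SE; adjusted p = 1.0 for both). IRX15, needed for normal xylan in secondary walls, fell short of the threshold with a log2 difference of -0.48 ± 0.21 (limma adjusted p = 0.633) and an uninduced mean of 2.99. Its value was the same in both replicate 1 arrays. IRX15-L differed by -0.16 ± 0.18 (1.0). In mannan synthesis CSLA03 differed by 0.31 ± 0.14 (limma adjusted p = 0.635), with all induced arrays above the uninduced ones, as in 5.82% of all rows. The gap was only 0.025 log2 units, and the uninduced mean of 2.975 lay at percentile 13.4 of all rows. In xyloglucan synthesis CSLC04, a backbone synthase, differed by -0.27 ± 0.10 (limma adjusted p = 0.526), with all induced arrays below, as in 6.43% of all rows. The related genes CSLC12, CSLC5 and CSLC6 lay between -0.05 and 0.10. The RWA proteins, which are thought to supply the acetyl groups, and the listed enzymes of pectin synthesis and pectin deacetylation have 0 rows under their names.

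The genes whose pattern over the 6 arrays was most like that of each of the 3 genes were found from the root mean square distance between log2 values centred on their mean. The arrays of both groups enter this distance, so for TBL38 and TBL19 it mostly picks genes with a like difference, and it is given as a description. For TBL38 the nearest was AT1G79620, a receptor kinase gene of vascular tissue, at a distance of 0.243 log2 units. AT3G13980 followed at 0.258, TBL40 at 0.27, and AT3G46880 and AT1G23340 both at 0.341. TBL40 was thus the third nearest of 16549 genes to TBL38, while TBL19 was the nearest TBL gene after it, at 0.93. Induced replicate 1 was the lowest induced array in all 5 of these genes, as in TBL38. For TBL19 the nearest genes were AT1G30320 at 0.093, AT3G46890 at 0.13 and AT3G11600 at 0.151, and no TBL gene was among them. For TBL39 they were UGLYAH, an enzyme of purine breakdown, at 0.0228, AT5G59960 at 0.0279 and AT3G03890 at 0.0282. These 3 genes had log2 differences of 0.29 to 0.35, like that of TBL39, and replicate 1 was the highest array in both groups in each of them.

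**Figure D4:**
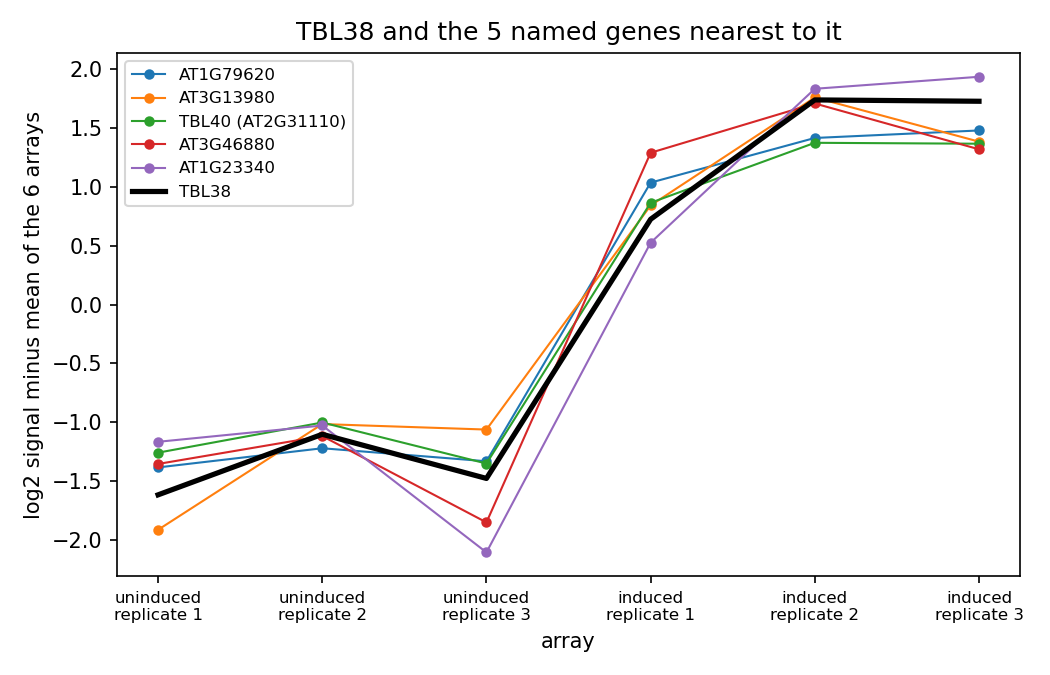
The log2 signal minus the mean of the 6 arrays for TBL38 (black) and the 5 named genes nearest to it, across the 3 uninduced and the 3 induced arrays. All 6 lines step up between the groups, and induced replicate 1 is the lowest induced array in each line.

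None of the neighbouring genes on the chromosome that could be read passed the test, which 0.961% of all rows did. So few genes cannot be told from that share, and no conclusion is drawn from their count. In the RefSeq gene order TBL19 lies directly beside TBL21, which shares its rows with another gene and was not read. On its other side AT5G15910 had a log2 signal of 8.29 ± 0.12 in uninduced and 8.25 ± 0.07 in induced arrays (SD, n = 3 per group), a log2 difference of -0.03 ± 0.11 (limma adjusted p = 1.0). AT2G42560, directly beside TBL39, differed by -0.27 ± 0.20 (0.969), and TTL3 on the other side has no row of its own. The genes directly beside TBL38 are non-coding RNA genes without a named row. The nearest gene with a row there, AT1G29060, was named after its value was seen and differed by -0.06 ± 0.28 (limma adjusted p = 1.0).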

How the data were processed

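Arrays measured total RNA labelled as sense-strand DNA, per the labels' protocols. The deposited values are log2 expression per row, which the authors made in Affymetrix Expression Console (version 1.3, per the submitters' processing notes). Background correction, normalization, summarization and genome build are not given in the sources used here, so the deposited values were taken unchanged and coordinates are left out. Rows were named from the platform annotation, and RefSeq (TAIR10.1) paired gene IDs with symbols for 16574 of 16722 rows that name a single gene. For a gene with several rows the one with the highest mean was used.

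The 2 groups were compared in R 4.3.3 with limma 3.58.1 (lmFit, eBayes, two-sided, no block, no filter, Benjamini-Hochberg over 38408 rows, threshold 0.05). The fit was tried on simulated data with independent normal noise in each row and array. These lacked the tied values and the joint deviation of same-numbered arrays, so how the test behaves with those was not tested. With 3 arrays a group an exact permutation test reaches no p below 0.1, and the number of arrays limits the precision. Nothing says that replicates are separate cultures; the p-values may measure technical spread only. Same-numbered arrays deviated together (correlations 0.633, 0.268 and 0.248 across rows), above the 0.1 at which numbers were taken as pairing samples, although the crossed numbers 2 and 3 gave 0.244 and 0.26.

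Members and lists were chosen with earlier results of these data known. Named genes were the TBL genes, up to 4 genes per other list by smallest p, genes adjacent to a member, and the 5 (TBL38) or 3 nearest in pattern. Alternatives were normalizations, signal filters, a trended prior, row averaging, blocks and left-out arrays. Figures used matplotlib 3.10.9 in Python 3.11.15.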

Additional observations from a re-analysis of the deposited data

How the results depend on the processing

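The log2 differences of TBL38, TBL19 and TBL39 kept their direction and moved by less than the larger group SD under all 12 alternatives run for each. The genes were chosen by this difference and their groups did not overlap, so leaving out arrays could not reverse it. With each array left out in turn they lay between 2.63 and 3.13 for TBL38, 0.86 and 1.15 for TBL19, and 0.29 and 0.40 for TBL39. Quantile normalization gave 2.79, 1.004 and 0.35. With the replicate number as a block the differences are the same by construction, at 2.80, 1.02 and 0.34 (SE 0.19, 0.19 and 0.07). The count of other TBL genes called, 1 in the reported fit, was 1 with the replicate block, where TBL40 had an adjusted p of 0.0357, and the block changed no other call among the TBL genes and the 9 wall polysaccharide genes. It was 0 to 1 with each array left out, being 0 without uninduced replicate 3, and 2 when a block term set both replicate 1 arrays apart, an alternative chosen after seeing the data that added TBL37. TBL40 passed in 15 of 16 fits, the reported one included, with adjusted p from 0.00134 to 0.0562. The count of other wall polysaccharide genes called was 0 in all 15 alternatives, and 0 to 0 with each array left out. Signal over background was not analysed here and limits the folds of rows with low uninduced signal, as in TBL38 and TBL19.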

Other observations

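Among the genes nearest in pattern, AT3G46880 (near TBL38) and AT3G46890 (near TBL19) lie directly beside each other in the RefSeq gene order. AT3G46880 had a log2 difference of 2.88 ± 0.22 and AT3G46890 one of 1.13 ± 0.16 (SE of the limma fit, n = 3 per group). Whether their transcripts or probes overlap was not tested.

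In both replicate 1 arrays TBL43 and TBL45 held the same log2 signal of 3.11, shared by both genes and both arrays. The tie was not particular to them, since each shared this value with 344 other rows of the induced array and 347 of the uninduced array. The replicate 1 arrays held 20350 (induced) and 20112 (uninduced) distinct values over 38408 rows, against 31500 to 31577 in the other 4 arrays. The cause was not tested.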
